A study of Mus musculus with 18 samples.

Results

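The genes described here were the 10 that carry the core of MHC class I antigen presentation in the mouse: *B2m*, *H2-K1*, *H2-D1*, *Tap1*, *Tap2*, *Tapbp*, *Psmb8*, *Psmb9*, *Psmb10* and *Nlrc5*. They were taken by symbol, with earlier results of these data known, and each of the 10 matched 1 of the 47729 genes of the count table. RNA-Seq counts came from the colon of 9 mice on a C57BL/6 background, 3 in each of 3 groups. Naive WT mice (mice 1 to 3) were the untreated controls. WT CAC mice (mice 4 to 6) received the carcinogen azoxymethane (AOM) once at 10 mg/kg body weight and afterwards drank 2.5% dextran sulfate sodium (DSS) in 3 cycles. This regimen leads to tumors of the inflamed colon, known as colitis-associated cancer (CAC). Mice 7 to 9, the *Cldn2*TG CAC group, received the same regimen and carried claudin-2 (*Cldn2*) under the villin promoter, which is active in the intestinal epithelium. The study's methods describe the WT mice as littermates of the transgenic line. A treatment text that names AOM and DSS was attached to the control samples as well, so the naive group rests on the treatment label. Naive *Cldn2*TG mice were not analysed here, so an effect of the transgene without AOM/DSS could not be separated. Ages of the mice were not given in the sources used here.

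Class I molecules consist of a polymorphic heavy chain and the invariant light chain beta-2-microglobulin, and they show peptides from inside the cell to CD8+ T cells. The peptides are cut by the proteasome, whose immunoproteasome form replaces the constitutive catalytic subunits with inducible ones, and are pumped into the endoplasmic reticulum by the TAP transporter before tapasin helps to load them. Interferon-gamma, acting in part through IRF1, and the transactivator NLRC5 are known to raise the transcription of these genes in epithelial cells and leukocytes alike.

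On the GRCm38 build, 7 of the 10 lie on chromosome 17 within the MHC region, *Psmb10* and *Nlrc5* lie on chromosome 8, and *B2m* lies on chromosome 2. *Psmb9*, *Tap1*, *Psmb8* and *Tap2* follow each other within 34334 bases at chr17:34181988-34216321. The starts of *Tap1* and *Psmb9* are 226 bases apart on opposite strands in RefSeq, so their promoter windows (250 bases before to 50 bases after the start) share 275 of 300 bases. Of the 10 genes, 8 have such a window in the RefSeq table for GRCm38.p6 used here, *H2-K1* with a second start nearby. The windows of the heavy chains, of the light chain and of the shared *Tap1* and *Psmb9* promoter are printed to show the letters that these genes do and do not share. Capitals mark matches, on either strand, to 4 short motifs: GAAANNGAA (core of the interferon response element), CCAAT (Y box), GGGATTCCC (kappa B site of enhancer A) and TGACGC (core of the X2 box).
*H2-K1* (chr17:34000298-34000597, minus strand): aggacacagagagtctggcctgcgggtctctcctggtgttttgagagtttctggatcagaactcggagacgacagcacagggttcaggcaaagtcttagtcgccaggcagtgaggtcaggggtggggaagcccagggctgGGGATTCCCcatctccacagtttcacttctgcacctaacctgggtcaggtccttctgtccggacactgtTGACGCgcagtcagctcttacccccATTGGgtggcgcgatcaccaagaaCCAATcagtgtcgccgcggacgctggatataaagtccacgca
*H2-D1* (chr17:35262844-35263143, plus strand): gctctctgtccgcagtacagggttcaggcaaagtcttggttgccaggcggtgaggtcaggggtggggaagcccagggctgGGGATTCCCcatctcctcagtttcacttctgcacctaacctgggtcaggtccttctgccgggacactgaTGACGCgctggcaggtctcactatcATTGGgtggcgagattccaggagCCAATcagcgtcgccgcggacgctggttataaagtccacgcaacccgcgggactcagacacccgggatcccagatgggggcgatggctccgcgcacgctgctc
*B2m* (chr2:122147437-122147736, plus strand): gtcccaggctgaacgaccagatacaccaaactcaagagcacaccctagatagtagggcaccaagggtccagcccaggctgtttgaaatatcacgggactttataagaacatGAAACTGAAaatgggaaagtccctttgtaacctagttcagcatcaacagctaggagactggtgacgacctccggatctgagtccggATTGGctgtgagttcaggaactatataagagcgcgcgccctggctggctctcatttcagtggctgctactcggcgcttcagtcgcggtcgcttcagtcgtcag
*Tap1* (chr17:34187306-34187605, plus strand): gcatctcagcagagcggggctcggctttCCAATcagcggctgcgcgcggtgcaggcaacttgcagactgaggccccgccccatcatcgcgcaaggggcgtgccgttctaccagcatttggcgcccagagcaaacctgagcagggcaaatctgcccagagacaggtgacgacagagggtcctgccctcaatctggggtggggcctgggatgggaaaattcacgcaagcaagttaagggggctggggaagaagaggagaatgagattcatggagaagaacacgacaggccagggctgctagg

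The windows of *H2-K1* and *H2-D1* were 88.3% identical over 239 aligned bases, and both held GGGATTCCC, TGACGC and CCAAT in the same order. GGGATTCCC occurred in 0.353% and TGACGC in 7.4% of 32851 RefSeq promoter windows of the same length. CCAAT was found in 6 of the 8 windows (*B2m*, *H2-K1*, *H2-D1*, *Tap1*, *Tapbp* and *Psmb9*) and in 37.4% of all windows. The matches of *Tap1* and *Psmb9* are the same bases of their shared promoter. GAAANNGAA stood only in the *B2m* window among the 8, against 8.56% of all windows. Only these letters were searched, so windows without a match may hold other forms of the interferon response element. None of the 4 motifs was found in the *Psmb8* and *Psmb10* windows. A match is a description of letters and not a measured binding site.

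The 9 libraries held between 14142711 and 22262546 counts, and a limit of 3 counts corresponds to 0.135 to 0.212 CPM, the unit that scales a count to the total of its library. Levels per mouse are CPM scaled by TMM factors over all 9 mice. *Cldn2* measured 191, 259 and 245 CPM in the naive WT mice, 119, 137 and 132 CPM in the WT CAC mice and 208, 218 and 251 CPM in the *Cldn2*TG CAC mice. It was higher in *Cldn2*TG CAC than in WT CAC mice (log2 fold change 0.78 ± 0.12 SE, adjusted p = 0.01028, edgeR), and the *Cldn2*TG CAC and naive WT values overlapped (log2 fold change -0.03, adjusted p = 0.8969). The count of the gene does not tell transgene from endogenous transcript. *Xist*, the transcript of the inactive X chromosome of females, was above 10 CPM in naive WT mouse 1 and in no other mouse. The study's methods describe the mice as sex-matched, and the sex of each mouse was not given in the labels. Both comparisons with naive WT mice carry this difference, and its part in them was not tested. *Epcam*, an epithelial surface protein, lay between 2230.1 and 2712 CPM in all 9 mice. WT CAC mouse 4 stood apart from WT CAC mice 5 and 6 over all genes (chi-square per degree of freedom of 66.3 and 65.3, against 31.9 between mice 5 and 6).

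Each gene was tested with edgeR over all genes of a comparison, and called higher or lower at a Benjamini-Hochberg adjusted p below 0.05. All 10 members had a positive log2 fold change in WT CAC against naive WT mice, with a median of 0.80 against 0.02 over all 15437 genes tested. *H2-K1*, *H2-D1*, *Tap2*, *Psmb8*, *Psmb9* and *Psmb10* passed the test as higher, 6 of 10, where 8.04% of all genes tested were called higher. These 6 were also the members in which every WT CAC mouse was above every naive WT mouse, as were 17.7% of all genes. All 10 had a negative one in *Cldn2*TG CAC against WT CAC mice, with a median of -0.52 against 0.01 over all 14888 genes. *Tap1* and *Nlrc5* passed as lower, 2 of 10, where 7.35% of all genes were called lower. Every *Cldn2*TG CAC mouse was below every WT CAC mouse for 3 members, *Nlrc5*, *Tap1* and *Psmb10*, and for 14.3% of all genes. *Cldn2*TG CAC against naive WT mice gave 1 member called higher, *Tap2*, against 3.92% of the 15013 genes. *Tap2* and *H2-K1* were higher there without overlap, as were 14.9% of all genes. All 10 members were tested in each of the 3 comparisons. An unadjusted p below 0.05 in edgeR was reached by 8, 7 and 4 of them, against 32.6%, 23.5% and 26% of all genes. DESeq2 called 8, 4 and 3, against 20.9%, 13.9% and 12% of the genes to which it gave an adjusted p. In the third comparison the counts of 4 and 3 were the nearest to these shares. The first and second comparison share the 3 WT CAC mice, so a high value in these mice moves both, in opposite directions. The third shares its mice with the others too.

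**Figure D1:**
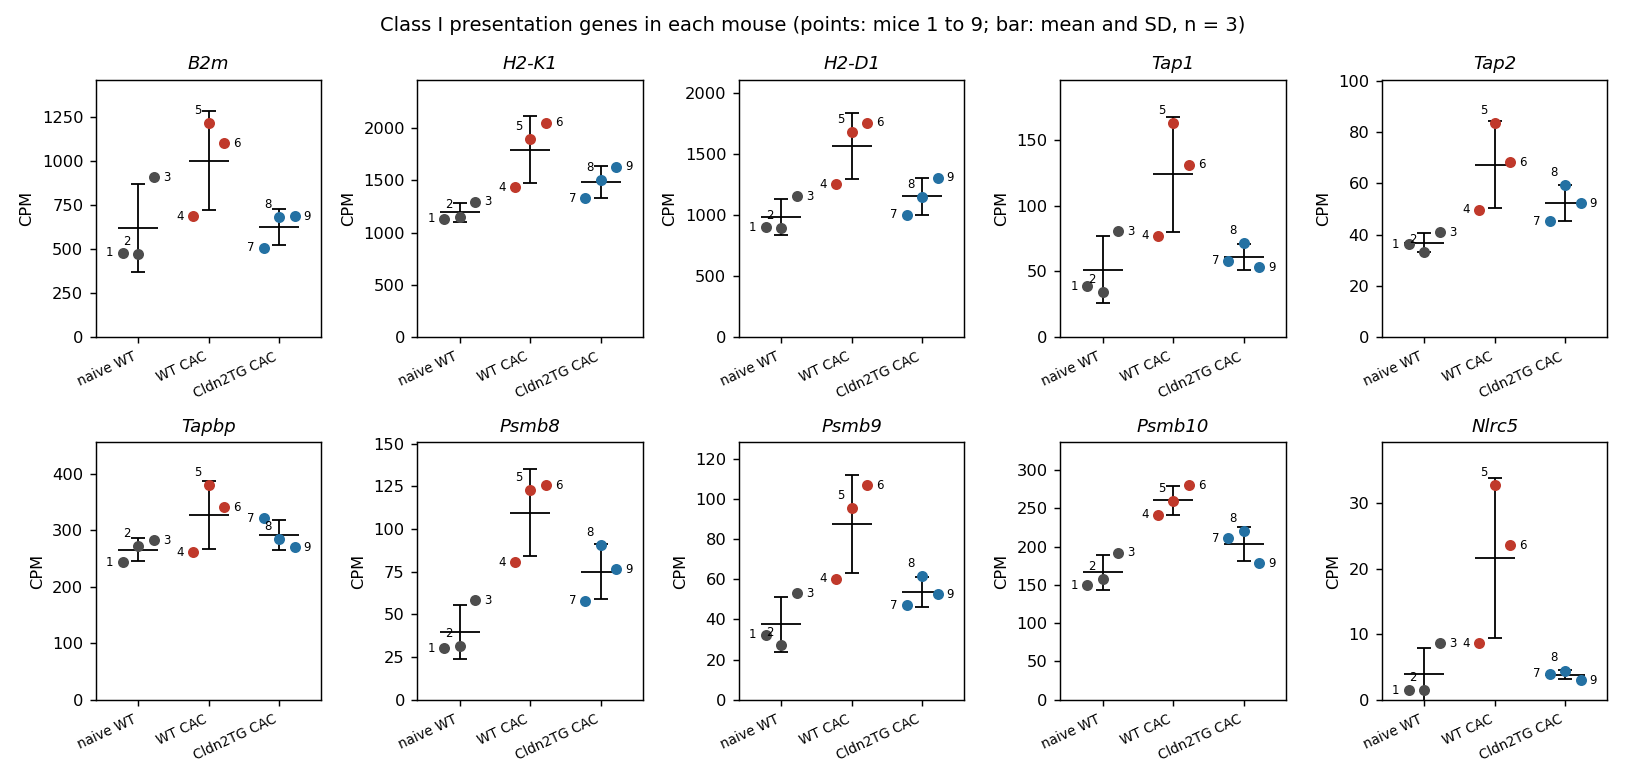
CPM (vertical axes, each starting at 0) of the 10 members in the 9 mice, 1 panel per gene, with points numbered by mouse, grey for naive WT, red for WT CAC and blue for *Cldn2*TG CAC; horizontal lines are means and bars SD, n = 3, and the lower end of the naive WT bar of *Nlrc5* falls below 0. WT CAC mice 5 and 6 are the highest 2 mice in each of the 10 panels, while for *B2m* WT CAC mouse 4 (685 CPM) lies below naive WT mouse 3 (909 CPM).

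*H2-K1* and *H2-D1* encode the classical heavy chains of the C57BL/6 mouse, and *B2m* encodes their light chain. *H2-K1* (chr17:33996017-34000333) measured 1134, 1151 and 1297 CPM in the naive WT and 1432, 1895 and 2053 CPM in the WT CAC mice. The *Cldn2*TG CAC values were 1328, 1503 and 1631 CPM. *H2-D1* (chr17:35262730-35267499) measured 904, 892 and 1155 CPM in the naive WT and 1258, 1679.8 and 1761 CPM in the WT CAC mice. *Cldn2*TG CAC mice had 1003, 1151 and 1309 CPM. *B2m* (chr2:122147686-122153083) measured 479.8, 473 and 909 CPM in the naive WT and 685, 1219 and 1102 CPM in the WT CAC mice. It measured, in *Cldn2*TG CAC mice, 507, 681 and 687 CPM. For the heavy chains every WT CAC mouse was above every naive WT mouse, whereas naive WT mouse 3 exceeded WT CAC mouse 4 for *B2m*. *H2-K1* rose from 1194 ± 89.6 to 1793 ± 322 CPM (SD, n = 3), 1.5-fold, with a log2 fold change of 0.61 ± 0.16 (SE, adjusted p = 0.03968). *H2-D1* rose from 983 ± 148 to 1566 ± 270.1 CPM, 1.59-fold, with a log2 fold change of 0.70 ± 0.17 (adjusted p = 0.03424). *B2m* was at 621 ± 249.7 and 1002 ± 280.4 CPM, and its log2 fold change of 0.72 ± 0.31 did not pass (adjusted p = 0.1543). Between *Cldn2*TG CAC and WT CAC mice none of the 3 genes was called by edgeR. The log2 fold changes were -0.29 ± 0.17 for *H2-K1* (adjusted p = 0.3491), -0.46 ± 0.17 for *H2-D1* (adjusted p = 0.1322) and -0.70 ± 0.22 for *B2m* (adjusted p = 0.08757). Against naive WT mice, *Cldn2*TG CAC mice had 0.32 ± 0.10 for *H2-K1* (adjusted p = 0.074), with no overlap between the groups, 0.24 ± 0.13 for *H2-D1* and 0.02 ± 0.28 for *B2m*. Heavy chain genes are near copies of each other, and reads that fit several of them may have been split or dropped in the authors' counting, so the levels of single heavy chains are uncertain.

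*Tap1* and *Tap2* encode the chains of the peptide transporter, and *Tapbp* encodes tapasin, which holds an empty class I molecule at the transporter. *Tap1* (chr17:34187553-34197225) measured 38.9, 34.2 and 80.6 CPM in the naive WT and 77.3, 163 and 131 CPM in the WT CAC mice. The *Cldn2*TG CAC values were 58.2, 71.7 and 53.1 CPM. *Tap2* (chr17:34203527-34216321) measured 36.3, 33.4 and 40.8 CPM in the naive WT and 49.7, 83.7 and 68.3 CPM in the WT CAC mice. *Cldn2*TG CAC mice had 45.2, 59.3 and 52.3 CPM. *Tapbp* (chr17:33915899-33929288) measured 244, 272 and 283 CPM in the naive WT and 261, 379.6 and 341 CPM in the WT CAC mice. It measured, in *Cldn2*TG CAC mice, 322, 285 and 269.7 CPM. The transporter genes differed in where the groups overlapped. *Tap1* of naive WT mouse 3 was above that of WT CAC mouse 4, while its 3 *Cldn2*TG CAC values were all below the 3 WT CAC values. *Tap2* had no overlap between naive WT and either CAC group. *Tap2* rose 1.82-fold in WT CAC against naive WT mice (log2 fold change 0.89 ± 0.19, adjusted p = 0.02283) and 1.42-fold in *Cldn2*TG CAC against naive WT mice (0.51 ± 0.12, adjusted p = 0.02589). Between *Cldn2*TG CAC and WT CAC mice its log2 fold change was -0.38 ± 0.19 (adjusted p = 0.2833). *Tap1* fell to 0.492 of its WT CAC mean in *Cldn2*TG CAC mice, from 124 ± 43.6 to 61.0 ± 9.58 CPM (log2 fold change -1.04 ± 0.26, adjusted p = 0.04174). Its log2 fold change between WT CAC and naive WT mice, 1.30 ± 0.39, was larger in size but did not pass (adjusted p = 0.06705), with a naive WT mean of 51.3 ± 25.5 CPM. *Tapbp* varied least of the 10 genes across the 9 mice, 1.56-fold from lowest to highest, and passed in no comparison (log2 fold changes 0.32, -0.19 and 0.14, adjusted p = 0.1790, 0.5672 and 0.4088). Of the exon bases of *Tap1*, 3.87% overlap those of *Psmb9* on the other strand, and *Tap2* and *Tapbp* share 14.1% and 20.2% of theirs with the antisense genes *Gm15821* and *Gm19412*. Whether the counting used strand was not given in the sources used here, so these reads could not be assigned with certainty.

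*Psmb8*, *Psmb9* and *Psmb10* encode the inducible catalytic subunits of the immunoproteasome, which take the places of those encoded by *Psmb5*, *Psmb6* and *Psmb7*. *Psmb8* (chr17:34197721-34201454) measured 30.1, 31.3 and 58.2 CPM in the naive WT and 80.5, 123 and 126 CPM in the WT CAC mice. The *Cldn2*TG CAC values were 58.1, 90.6 and 76.5 CPM. *Psmb9* (chr17:34181988-34187764) measured 32.4, 27.4 and 53.1 CPM in the naive WT and 60.3, 95.4 and 107 CPM in the WT CAC mice. *Cldn2*TG CAC mice had 47.0, 61.6 and 52.6 CPM. *Psmb10* (chr8:105935728-105938392) measured 149.5, 158 and 192 CPM in the naive WT and 242, 259.6 and 280.0 CPM in the WT CAC mice. It measured, in *Cldn2*TG CAC mice, 211, 219.9 and 178 CPM. In all 3 genes the WT CAC mice lay above the naive WT mice without overlap, and *Psmb10* was the single one of the 3 in which the WT CAC mice also lay above all *Cldn2*TG CAC mice. *Psmb8* rose 2.75-fold in WT CAC against naive WT mice (log2 fold change 1.49 ± 0.29, adjusted p = 0.02098). *Psmb9* rose 2.32-fold (1.24 ± 0.29, adjusted p = 0.03366). *Psmb10* rose 1.57-fold (0.67 ± 0.13, adjusted p = 0.01849), the smallest of the 3 changes with the smallest spread within the WT CAC group, 7.33% of the mean. None of the 3 passed in the main edgeR fit of *Cldn2*TG CAC against WT CAC mice. The log2 fold changes were -0.57 ± 0.21 for *Psmb8* (adjusted p = 0.1395), -0.72 ± 0.21 for *Psmb9* (adjusted p = 0.06746) and -0.38 ± 0.13 for *Psmb10* (adjusted p = 0.1043). Against naive WT mice the *Cldn2*TG CAC mice had 0.92 ± 0.29 for *Psmb8* (adjusted p = 0.1097), 0.52 ± 0.24 for *Psmb9* and 0.30 ± 0.12 for *Psmb10*, and none passed in the main edgeR fit.

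The inducible subunits were next set against their constitutive counterparts within each mouse, since a ratio of counts per kilobase of exon in 1 library does not depend on the scaling between libraries. None of *Psmb5*, *Psmb6* and *Psmb7* passed in any comparison in edgeR, and their log2 fold changes between WT CAC and naive WT mice were 0.25, 0.41 and -0.002. In the 3 comparisons 1, 0 and 1 of them had an unadjusted p below 0.05 in edgeR, against 32.6%, 23.5% and 26% of all genes. In *Cldn2*TG CAC against naive WT mice 2 of the 3 were higher without overlap, as were 14.9% of all genes. The ratio of *Psmb8* to *Psmb5* was 0.142, 0.159 and 0.289 in naive WT, 0.344, 0.620 and 0.449 in WT CAC, and 0.295, 0.360 and 0.319 in *Cldn2*TG CAC mice. The ratio of *Psmb9* to *Psmb6* was 0.137, 0.122 and 0.231 in naive WT, 0.204, 0.361 and 0.311 in WT CAC, and 0.188, 0.201 and 0.170 in *Cldn2*TG CAC mice. The ratio of *Psmb10* to *Psmb7* was 5.55, 6.25 and 6.91 in naive WT, 11.2, 9.94 and 9.11 in WT CAC, and 7.49, 7.65 and 5.73 in *Cldn2*TG CAC mice. *Psmb10* was thus the 1 inducible subunit with more counts per kilobase than its counterpart, in all 9 mice, and the others were below theirs in all 9. This order depends on the exon lengths used, such as 2736 bases for *Psmb8* and 871 for *Psmb5*. Before division by length, *Psmb8* had 2783 counts against 1429 for *Psmb5* in WT CAC mouse 5. In naive WT mouse 1 it had 604 against 1353. With 3 mice against 3 a two-sided exact permutation test cannot go below p = 0.1, and it reached this value in 5 of 9 comparisons (adjusted p = 0.18 over the 9). Against naive WT mice these were *Psmb8* to *Psmb5* in WT CAC (2.45-fold) and in *Cldn2*TG CAC mice (1.73-fold) and *Psmb10* to *Psmb7* in WT CAC mice (1.62-fold). Against WT CAC mice they were *Psmb9* to *Psmb6* (0.655-fold) and *Psmb10* to *Psmb7* (0.686-fold) in *Cldn2*TG CAC mice. In the other 4 the groups overlapped. The exact p was 0.2 for *Psmb9* to *Psmb6* in WT CAC against naive WT mice (1.81-fold) and for *Psmb8* to *Psmb5* in *Cldn2*TG CAC against WT CAC mice (0.708-fold). It was 0.4, in the same permutation test, for *Psmb9* to *Psmb6* (1.19-fold) and *Psmb10* to *Psmb7* (1.11-fold) in *Cldn2*TG CAC against naive WT mice.

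**Figure D2:**
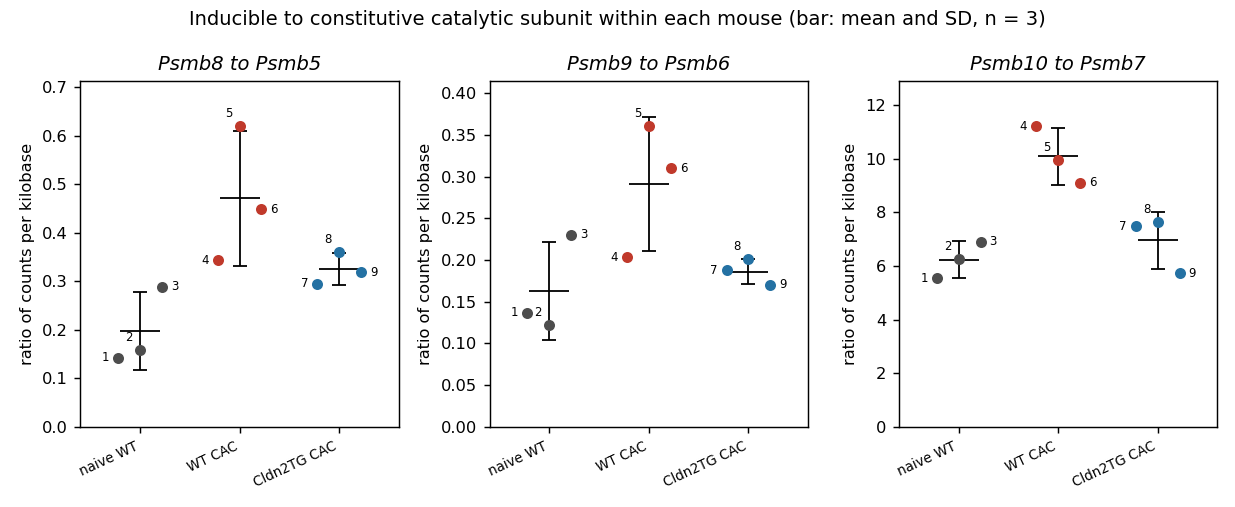
Ratio of counts per kilobase of exon (vertical axes, starting at 0) of each inducible to its constitutive catalytic subunit in the 9 mice, with points numbered by mouse and lines and bars for mean and SD, n = 3. The 3 WT CAC mice lie above the 3 naive WT mice for *Psmb8* to *Psmb5* (lowest 0.344 against highest 0.289) and *Psmb10* to *Psmb7* (9.11 against 6.91), and overlap them for *Psmb9* to *Psmb6*.

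*Nlrc5* (chr8:94472763-94527272), which encodes the transactivator of class I genes, had the lowest level of the 10 genes and the widest range. It measured 1.49, 1.51 and 8.60 CPM in naive WT, 8.58, 32.7 and 23.6 CPM in WT CAC, and 4.0, 4.46 and 3.03 CPM in the transgenic mice, which is a 21.9-fold span from mouse 1 to mouse 5. Naive WT mouse 3 and WT CAC mouse 4 had nearly the same level, and all 3 *Cldn2*TG CAC mice fell between the low naive WT mice and these. *Nlrc5* fell to 0.177 of the WT CAC mean in *Cldn2*TG CAC mice, from 21.6 ± 12.2 to 3.83 ± 0.73 CPM (log2 fold change -2.51 ± 0.46, adjusted p = 0.01898). In WT CAC against naive WT mice it had the largest fitted change of the 10, 2.49 ± 0.80, and did not pass (adjusted p = 0.08269). Means of *Cldn2*TG CAC and naive WT mice, 3.83 ± 0.73 and 3.87 ± 4.10 CPM, gave a log2 fold change of -0.01 ± 0.73 (adjusted p = 0.9941).

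**Figure D3:**
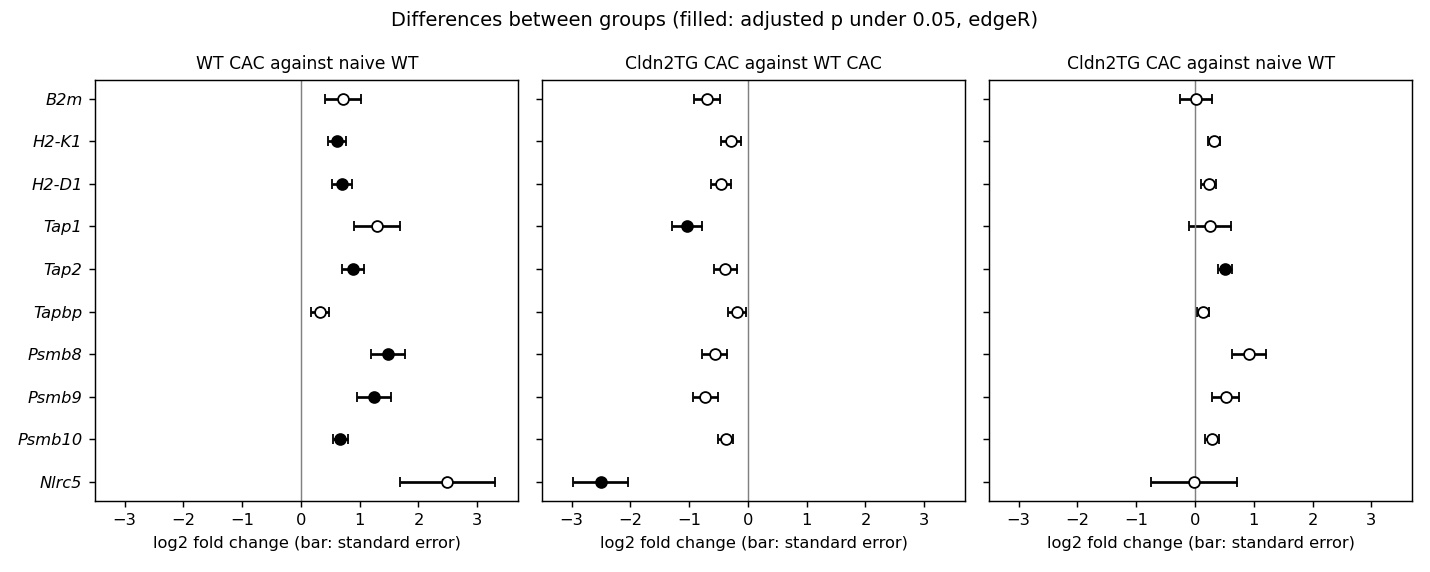
Log2 fold change (horizontal axis) of the 10 members in the 3 comparisons, with bars for the standard error of the edgeR fit and filled points for an adjusted p under 0.05. All 10 points lie right of 0 in WT CAC against naive WT mice (6 filled) and left of 0 in *Cldn2*TG CAC against WT CAC mice (2 filled, *Tap1* and *Nlrc5*); 9 of 10 lie right of 0 in *Cldn2*TG CAC against naive WT mice (1 filled, *Tap2*).

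Levels were compared between genes as CPM per kilobase of exon. *B2m* led in all 3 groups, at 722 ± 290.4 in naive WT, 1165 ± 326 in WT CAC and 727 ± 119 in *Cldn2*TG CAC mice. In the same order of groups, *H2-K1* followed at 458 ± 34.3, 688 ± 124 and 570.3 ± 58.4, and *H2-D1* at 381 ± 57.5, 607 ± 105 and 448 ± 59.2. *Psmb10* and *Tapbp* came next, at 131 ± 17.7 and 80.7 ± 6.12 per kilobase in naive WT mice. *Psmb8*, *Psmb9*, *Tap1* and *Tap2* lay between 9.36 and 14.6 per kilobase in naive WT mice on average, and *Nlrc5* lay at 0.506. In the order of the levels, the ranges over mice of neighbours overlapped for *H2-K1* and *H2-D1* in naive WT and WT CAC mice and for *B2m* and *H2-K1* in *Cldn2*TG CAC mice. They also overlapped among *Psmb9*, *Tap1* and *Tap2* in all 3 groups, with *Psmb8* joining them in naive WT mice. *Tap1* stood below *Tap2* in naive WT and *Cldn2*TG CAC mice and above it in WT CAC mice, within this overlap.

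Mice of the same group differed in these genes as well. Naive WT mouse 3 was above the mean of naive WT mice 1 and 2 for 10 of 10 members, from 1.10-fold (*Tapbp*) to 5.73-fold (*Nlrc5*) with a median of 1.53, while the median of 13846 genes was 1.0. The mean of WT CAC mice 5 and 6 was above WT CAC mouse 4 for 10 of 10 members, from 1.12-fold (*Psmb10*) to 3.28-fold (*Nlrc5*) with a median of 1.54, while the median of all these genes was 1.04. As a mean of z-scores over the 10 genes, the naive WT mice stood at -1.24, -1.22 and -0.10, the WT CAC mice at 0.10, 1.45 and 1.33, and the *Cldn2*TG CAC mice at -0.31, 0.11 and -0.13. By this mean the *Cldn2*TG CAC mice were the tightest group, and naive WT mouse 3 and WT CAC mouse 4 lay at their level. Over 13906 genes with a mean of at least 1 CPM, those whose log2 CPM followed this mean most closely in the 9 mice were *Btnl2* (Pearson r = 0.989), *H2-T10* (0.980), *Gzma* (0.971), *Gzmb* (0.971) and *Ripk3* (0.966). These correlations describe 9 mice that share 3 groups. *Gzmb* met the mean of at least 1 CPM only through the WT CAC mice, where the members were also high. *Gzma* and *Gzmb*, the granzymes of cytotoxic lymphocytes, averaged 8.92 and 5.01 CPM in WT CAC, 1.5 and 0.645 CPM in *Cldn2*TG CAC, and 0.748 and 0.443 CPM in naive WT mice.

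The calls depended on single mice. In WT CAC against naive WT mice, leaving out naive WT mouse 1 or mouse 2 left 0 members called, where 3.96% and 0.847% of all genes were called, and the 10 log2 fold changes were still positive. Leaving out naive WT mouse 3 left 5 (*Tap1*, *Psmb8*, *Psmb9*, *Psmb10* and *Nlrc5*), against 2.55% of all genes, with log2 fold changes of 3.85 for *Nlrc5* (adjusted p = 0.04017) and 1.77 for *Tap1* (adjusted p = 0.04439). Without WT CAC mouse 4 there were 8 called, all but *B2m* and *Nlrc5*, against 25.7% of all genes. *Psmb10* alone was called without WT CAC mouse 5 or 6, against 7.9% and 6.72%. A fit of all 9 mice together called 8 in this comparison, all but *B2m* and *Tapbp*, against 20.2%. The count in *Cldn2*TG CAC against WT CAC mice was 7 without WT CAC mouse 4 (all but *H2-K1*, *Tapbp* and *Psmb10*), where 19.2% of all genes were called. It was 1 (*Nlrc5*) without WT CAC mouse 5 or 6, against 3.7% and 5.19%, and 0 without *Cldn2*TG CAC mouse 7, 8 or 9, against 2.92%, 0.382% and 0.685%. The 10 fold changes stayed negative each time. The fit of all 9 mice called 0 members there (adjusted p = 0.05339 for *Nlrc5* and 0.08633 for *Tap1*), against 13.6% of all genes. DESeq2 called 4 (*B2m*, *Tap1*, *Psmb9* and *Nlrc5*), against 13.9% of the genes tested. With no filter on low counts edgeR called *B2m* and *Psmb9* in place of *Tap1* and *Nlrc5*, against 6.53% of all genes. In *Cldn2*TG CAC against naive WT mice the call of *Tap2* was lost without naive WT mouse 1 or 2 (6.25% and 7.16% of all genes called) and without *Cldn2*TG CAC mouse 8 or 9 (4% and 5.26%). Without naive WT mouse 3 there were 5 called (*Tap1*, *Tap2*, *Psmb8*, *Psmb9* and *Nlrc5*), against 3.44%, and without *Cldn2*TG CAC mouse 7 there were 2 (*H2-K1* and *Tap2*), against 8.95%. The fit of all 9 mice called 0, against 2.83%.

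**Figure D4:**
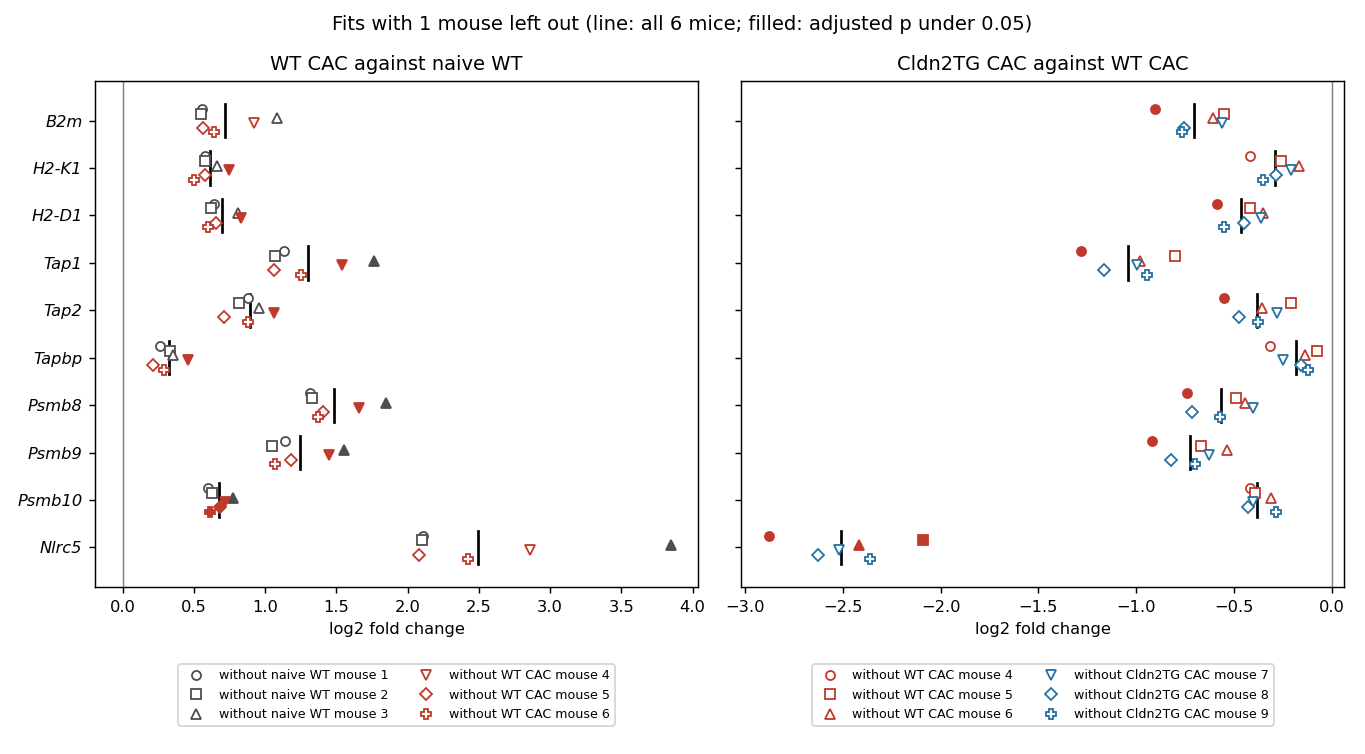
Log2 fold change (horizontal axis) of the 10 members with 1 mouse left out at a time, for WT CAC against naive WT (left) and *Cldn2*TG CAC against WT CAC (right); black lines mark the fit to all 6 mice, and symbols are filled where the adjusted p was under 0.05. No symbol crosses 0 in either panel, and most fills on the left belong to the fits without naive WT mouse 3 (5 genes) or WT CAC mouse 4 (8 genes), as do those on the right for WT CAC mouse 4 (7 genes).

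Markers of several leukocyte types moved with these genes. In bulk tissue, more cells of a type and more RNA per cell cannot be told apart. The summed CPM of 6 leukocyte markers was 27.1 to 67.5 in naive WT, 139.8 to 178 in WT CAC and 31.5 to 50.4 in *Cldn2*TG CAC mice. All 6 passed as higher in WT CAC against naive WT mice and 5 of 6 as lower in *Cldn2*TG CAC against WT CAC mice, against 8.04% and 7.35% of all genes, shares that hold for the marker counts of these comparisons that follow. *Ptprc*, the pan-leukocyte CD45, measured 10.9, 4.67 and 9.47 CPM in the naive WT and 16.9, 24.3 and 20.2 CPM in the WT CAC mice. The *Cldn2*TG CAC values were 7.37, 6.13 and 4.21 CPM. The sum of 10 T and NK cell markers was 3.68, 4.12 and 12.4 CPM in naive WT, 20.7, 49.4 and 43.3 CPM in WT CAC, and 6.75, 7.70 and 12.8 CPM in *Cldn2*TG CAC mice. In this sum naive WT mouse 3 and WT CAC mice 5 and 6 were the high mice of their groups, as for the members and for the sums of B and plasma cell and of macrophage and dendritic cell markers given below. The leukocyte sum was also higher in WT CAC mice 5 and 6 than in mouse 4, but among the naive WT mice it was highest in mouse 1 (67.5, against 27.1 and 45.3 CPM in mice 2 and 3). Of the 9 of these markers that could be tested in all 3 comparisons, 6 passed as higher in WT CAC against naive WT mice and 6 as lower in *Cldn2*TG CAC against WT CAC mice. *Cd8a*, a subunit of the co-receptor for class I, measured 0.498, 0.502 and 1.26 CPM in the naive WT and 1.88, 4.55 and 3.21 CPM in the WT CAC mice. *Cldn2*TG CAC mice had 0.620, 0.709 and 1.33 CPM. *Cd3e*, a chain of the T cell receptor complex, did not pass in any comparison, at 0.0498 to 1.17, 1.02 to 2.92 and 0.405 to 1.26 CPM in the 3 groups.

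Other cell types differed as well. The 7 B and plasma cell markers summed to 42.0 to 99.8 CPM in the naive WT, 247 to 466 CPM in the WT CAC and 40.6 to 108 CPM in the *Cldn2*TG CAC group, the order used below. Of these 7, 2 passed as higher in WT CAC against naive WT mice and 4 as lower in *Cldn2*TG CAC against WT CAC mice. The 9 macrophage and dendritic cell markers summed to 121 to 144, 119 to 259.7 and 91.2 to 108 CPM. Of these, 7 could be tested in all 3 comparisons, and 5 of the 7 passed in each of these comparisons in the same directions. In both of these sums naive WT mouse 3 was the highest of its group (99.8 and 144 CPM), and WT CAC mouse 4 the lowest (247 and 119 CPM). Of the 6 neutrophil markers, *Ly6g* alone made up most of the sum in every mouse, which was 137 to 208, 299.9 to 378 and 302 to 351 CPM, with naive WT mouse 3 the lowest. The other 5, a sum chosen after the values were seen, gave 0.0502 to 0.825, 2.03 to 51.4 and 0.222 to 0.507 CPM, with *Retnlg* at 0 in 6 mice and *Cxcr2* at 0 in 3. Of these 5, none passed the filter on low counts in *Cldn2*TG CAC against naive WT mice, and those that passed it in the other comparisons did so through the WT CAC mice, so no count of calls is given. *Ly6g* was tested in all 3 comparisons and was higher without overlap in WT CAC against naive WT mice (0.82 ± 0.17, adjusted p = 0.02062) and in *Cldn2*TG CAC against naive WT mice (0.87 ± 0.15, adjusted p = 0.008812), with 0.04 ± 0.12 between the CAC groups (adjusted p = 0.9024). Between the CAC groups *Ly6g* thus did not follow the sum of the other 5. The 6 fibroblast markers summed to 292 to 422, 446 to 1119 and 181 to 260.4 CPM. In edgeR 0 passed in WT CAC against naive WT mice (4 at an unadjusted p below 0.05, against 32.6% of all genes) and 2 passed as lower in *Cldn2*TG CAC against WT CAC mice. The 5 endothelial markers summed to 31.4 to 39.8, 33.2 to 41.6 and 19 to 22.5 CPM, and the 6 smooth muscle markers to 1954 to 3966, 1036 to 2875 and 939 to 1452 CPM. In edgeR 2 endothelial and 0 smooth muscle markers were lower in *Cldn2*TG CAC against WT CAC mice (4 and 0 at an unadjusted p below 0.05, against 23.5% of all genes). By contrast the 10 epithelial markers summed to 22422 to 24178, 22536 to 29152 and 24745 to 30007 CPM. None passed in WT CAC against naive WT or in *Cldn2*TG CAC against WT CAC mice in edgeR (3 and 0 at an unadjusted p below 0.05, against 32.6% and 23.5% of all genes). In *Cldn2*TG CAC against naive WT mice the epithelial sums did not overlap, and 2 of the 10 epithelial markers passed as higher (*Krt8*, 0.43 ± 0.11, adjusted p = 0.03843, and *Cldn7*, 0.31 ± 0.09, adjusted p = 0.04834), where 3.92% of all genes did. In that comparison 3 of 5 endothelial, 2 of 6 smooth muscle, 1 of 6 fibroblast and 1 of 7 tested macrophage and dendritic cell markers passed as lower, against 6.07% of all genes. All 6 smooth muscle markers were lower there without overlap, as were 16.3% of all genes. Of the leukocyte, T and NK cell, and B and plasma cell markers 0 passed in it in edgeR (1, 0 and 0 at an unadjusted p below 0.05, against 26% of all genes). The part of any of these cell types in the differences of the members was not tested.

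**Figure D5:**
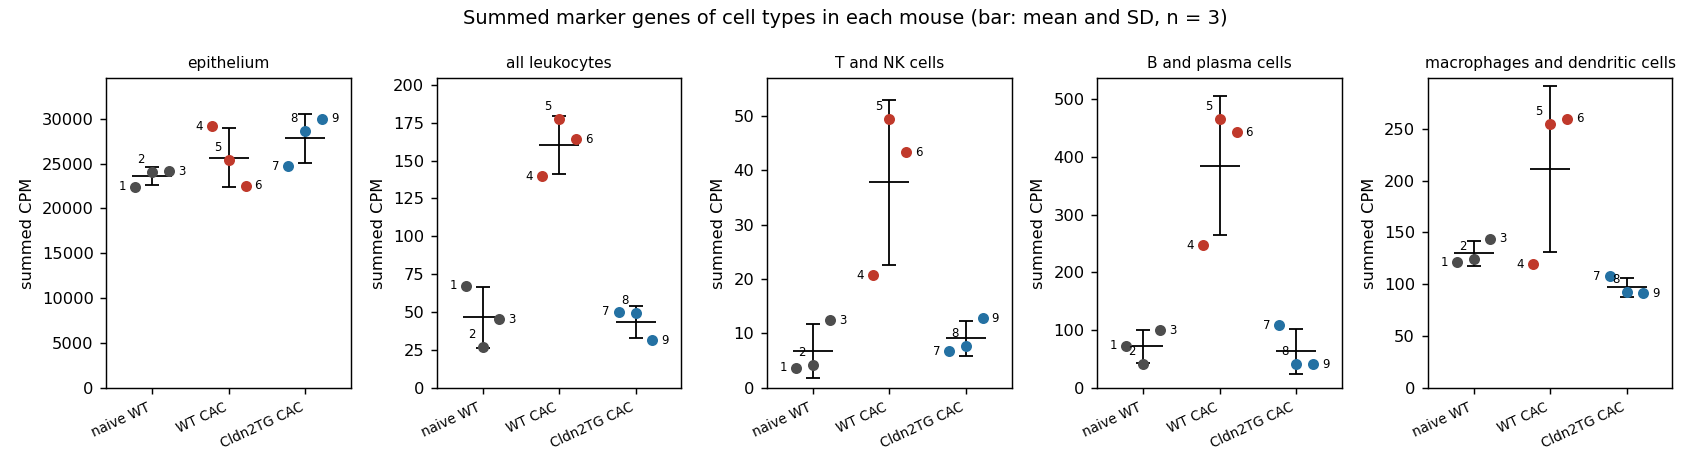
Summed CPM (vertical axes, starting at 0) of marker genes of 5 cell types in the 9 mice, with points numbered by mouse and lines and bars for mean and SD, n = 3. The leukocyte sums of the 3 WT CAC mice (139.8 to 178) lie above those of all other mice (27.1 to 67.5), while the epithelial sums overlap between WT CAC and both other groups.

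The pathway around the members was described by lists of related genes. Of 21 other heavy chain and class I-like genes, 17 could be tested for WT CAC against naive WT mice. Their median log2 fold change was 0.54, and 5 passed as higher and 0 as lower, against 8.04% and 6.92% of all genes. *H2-Q4*, a nonclassical heavy chain, rose from 33.8, 33.2 and 44.6 CPM to 52.4, 104 and 107 CPM (log2 fold change 1.26 ± 0.27, adjusted p = 0.02618) and was at 39.4, 43.9 and 44.4 CPM in *Cldn2*TG CAC mice (-1.07 ± 0.25 against WT CAC, adjusted p = 0.03553). *Fcgrt*, the heavy chain of the neonatal Fc receptor that also pairs with beta-2-microglobulin, and *H2-T22* rose by log2 fold changes of 0.64 ± 0.15 (adjusted p = 0.02923) and 0.54 ± 0.12 (adjusted p = 0.02809). *H2-T23*, the Qa-1 heavy chain, did not pass in this comparison (0.51 ± 0.15, adjusted p = 0.05245) and was the 1 gene of the list called higher in *Cldn2*TG CAC against naive WT mice (0.41 ± 0.11, adjusted p = 0.0415), where 3.92% of all genes were. Of 16 tested in *Cldn2*TG CAC against WT CAC mice, 3 passed as lower, against 7.35% of all genes, with a list median of -0.30. Beside *H2-Q4* these were *H2-Q6* (-2.79, adjusted p = 0.03081) and *H2-Q7* (-3.0, adjusted p = 0.04263), named after their values were seen. They are near-identical genes that may share reads.

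Of 11 genes for helpers of folding and loading in the endoplasmic reticulum, *Tapbpl*, which encodes the peptide editor TAPBPR, was the 1 that passed in WT CAC against naive WT mice (0.96 ± 0.20, adjusted p = 0.02359), a share of the list near the 8.04% of all genes called higher. The list median was -0.10, and 0 passed in *Cldn2*TG CAC against WT CAC or naive WT mice (0 and 2 at an unadjusted p below 0.05, edgeR, against 23.5% and 26% of all genes). Of 11 tested genes for other 20S subunits, 0 passed in WT CAC against naive WT mice (median 0.24) or in *Cldn2*TG CAC against WT CAC mice (median 0.04), with 2 and 0 at an unadjusted p below 0.05 in edgeR, against 32.6% and 23.5% of all genes. *Psma2*, *Psma7* and *Psmb1* passed as higher in *Cldn2*TG CAC against naive WT mice, by 0.34 ± 0.10 to 0.42 ± 0.10, against 3.92% of all genes. Of 17 genes for the 19S cap, 0, 0 and 1 passed in the 3 comparisons in edgeR (4, 0 and 3 at an unadjusted p below 0.05, against 32.6%, 23.5% and 26% of all genes), the last being *Psmd13* (0.39 ± 0.09, adjusted p = 0.02673). Among 10 proteasome activators and assembly factors, *Psme2*, a subunit of the interferon-inducible PA28 activator, and *Psmg4* passed in WT CAC against naive WT mice, where 8.04% of all genes were called higher (0.44 ± 0.11, adjusted p = 0.03409, and 0.73 ± 0.17, adjusted p = 0.0309). *Psme1*, the partner of *Psme2*, did not (0.42 ± 0.14, adjusted p = 0.08291).

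Of 12 genes of the interferon-gamma axis, 11 were tested. *Ifng* itself was at the limit of these libraries, with 0 to 0.268 CPM in each mouse, so a difference in it was not detectable at this depth. *Irf1*, an activator of class I promoters, rose in WT CAC against naive WT mice (0.47 ± 0.12, adjusted p = 0.04287) and did not pass in *Cldn2*TG CAC against WT CAC mice (-0.14 ± 0.15, adjusted p = 0.6652). *Socs1*, a feedback inhibitor of the pathway named after its value was seen, also rose in WT CAC against naive WT mice (1.25 ± 0.29, adjusted p = 0.0308), and 8.04% of all genes were called higher there. *Irf2*, a repressor of some interferon-responsive genes, fell in the same comparison (-0.47 ± 0.13, adjusted p = 0.04659), where 6.92% of all genes were called lower. *Stat2*, a transcription factor of type I interferon signalling, was the 1 gene of these 11 that fell in *Cldn2*TG CAC against WT CAC mice (-0.79 ± 0.19, adjusted p = 0.03424), against 7.35% of all genes, and 0 of 11 passed in *Cldn2*TG CAC against naive WT mice in edgeR (2 at an unadjusted p below 0.05, against 26% of all genes). The list medians were 0.16, -0.08 and 0.14 in the 3 comparisons.

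Of 10 genes for partners and relatives of NLRC5, 1 passed in any comparison, which is near the 8.04% of all genes called higher in WT CAC against naive WT mice. *Ciita*, the class II transactivator, measured 3.43, 1.41 and 3.13 CPM in the naive WT and 7.31, 23.3 and 14.8 CPM in the WT CAC mice. The *Cldn2*TG CAC values were 4.34, 6.84 and 3.03 CPM. It rose in WT CAC against naive WT mice (2.53 ± 0.48, adjusted p = 0.01937), and its log2 fold change of -1.68 ± 0.45 in *Cldn2*TG CAC against WT CAC mice did not pass (adjusted p = 0.05631), although the groups did not overlap. *Ciita* is expressed in antigen-presenting leukocytes, whose marker sums are given above, and their part in its differences was not tested. The genes for the RFX, CREB and NF-Y factors that bind class I promoters with NLRC5 did not pass in any comparison in edgeR. Of the whole list of 10, 1, 1 and 4 had an unadjusted p below 0.05 in edgeR in the 3 comparisons. The shares of all genes were 32.6%, 23.5% and 26%. List medians were 0.07, 0.13 and 0.21.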

How the data were processed

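Total RNA of the colon (Quick-RNA Mini-Prep kit) was sequenced by the authors on a NovaSeq6000, and whole-number counts were deposited per gene for each of 2 lanes a library. The submitters' processing notes name HISAT2, featureCounts of Subread and GRCm38, while the study's methods name TopHat2. Versions, settings and strand were not given in the sources used here. Symbols matched 47224 of 47729 identifiers. All 18 columns were used. Lanes of a mouse differed by about the sampling noise (chi-square per degree of freedom 0.995 to 1.06, against 16.8 to 66.3 for mice within groups) and were summed as 1 sample.

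Each comparison was fitted in edgeR 4.0.16 (R 4.3.3) on its 6 mice, with TMM, filterByExpr (minimum count 10, minimum total 15) and a robust two-sided quasi-likelihood test, adjusted over all genes tested. The study used DESeq2, here an alternative (version 1.42.0). Standard errors came from the test statistic. Intervals of the spread cover 3 mice a group, and limits from counts cover counting error only. Subunit ratios were tested by exact permutation. Correlations used log2(CPM + 0.5). The code was tested on simulated data with known changes. Other tools were Python 3.11.15, pandas 2.3.3, scipy 1.17.1 and matplotlib 3.10.9.

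The 10 members and all gene and marker lists were chosen with earlier results of these data known. Named were all members, at most 4 called genes of a pathway list by mean CPM, *Psmb5*, *Psmb6*, *Psmb7*, *Psme1*, *Psme2*, *Irf1*, *Ifng*, *Ciita* and *Cldn2*, 4 cell type markers (*Ptprc*, *Epcam*, *Cd3e*, *Cd8a*) and the 5 genes most like the members. Other markers (*Ly6g*, *Retnlg*, *Cxcr2*, *Krt8*, *Cldn7*) and *H2-Q6*, *H2-Q7*, *Socs1* and *Xist* were named outside this rule, after their values were seen. A gene of 1 pathway list and a motif are not reported here. Alternatives were library-size and RLE normalization, DESeq2, no filter, a minimum of 10 counts in each mouse, 1 fit of all 9 mice, each lane alone, and leaving out each mouse in turn.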

Additional observations from a re-analysis of the deposited data

How the results depend on the processing

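No paired analysis was possible because the groups were different mice, and no pairing by litter or cage was given in the sources used here. In *Cldn2*TG CAC against WT CAC mice, DESeq2 called 4 members and a fit of all 9 mice called 0 (13.9% and 13.6% of the genes tested called). With no filter 2 were called that were not *Tap1* and *Nlrc5* but *B2m* and *Psmb9* (6.53% of all genes called). The genes called in all were 908 with at least 10 counts in every mouse and 2136 in the fit of all 9 mice. In *Cldn2*TG CAC against naive WT mice, 0 members were called with library size only, with all 9 mice and with lane 2 only (10.6%, 2.83% and 7.54% of all genes called), and 3 with DESeq2 and with no filter (12% and 9.91%), and the genes called were 2567 with no filter and 445 with all 9 mice. Leaving out 1 mouse at a time, members called ranged from 0 to 8, 0 to 7 and 0 to 5, and genes called from 135 to 4080, 58 to 2894 and 525 to 1383, in WT CAC against naive WT, *Cldn2*TG CAC against WT CAC and *Cldn2*TG CAC against naive WT mice. The direction of 2 values turned: *B2m* in *Cldn2*TG CAC against naive WT mice was -0.11 with library size only, -0.0013 with lane 2 only and -0.14 to 0.39 without 1 mouse, and *Nlrc5* in the same comparison was -0.39 to 1.36 without 1 mouse. No member changed direction in the other 2 comparisons under any of the 14 alternatives of each. Normalization by library size or RLE left 6 members called in WT CAC against naive WT mice (14.8% and 15% of all genes called), no filter gave 4 (9.4%), and DESeq2 and all 9 mice gave 8 (20.9% and 20.2%). The cause of these differences was not tested. Counts were low for *Ifng* in all groups, and for the neutrophil markers other than *Ly6g* in the naive WT and *Cldn2*TG CAC mice, which limited their comparison.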
